A study of Bos taurus with 129 samples.

Results

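The comparison concerned stocker steers sampled on day 0, the day after arrival, and asked how the blood transcriptome of cattle labelled with bovine respiratory disease (BRD) differed from that of cattle labelled healthy on the same day. The members were all 26 libraries of day 0, set apart from the 25 libraries of day 13 and the 26 of each of days 28, 45 and 60 in the same count table, and the disease label alone separated them into 14 BRD and 12 healthy animals. All were commercial crossbred beef steers hauled over a long distance, kept together in a paddock on arrival and then enrolled in drylot pens on day 0, when every animal also received a viral respiratory vaccine and doramectin. Animals were placed in pens at random, stratified by weight, and pens were assigned to supplements at random. The steers were assigned to copper, cobalt, manganese and zinc fed as sulfates (INR; 7 BRD, 4 healthy), to amino acid-complexed sources of the same minerals (AAC; 4 BRD, 4 healthy), or to the complexed sources with an oral mineral drench given before shipment and on day 0 (COMBO; 3 BRD, 4 healthy). COMBO animals were also to be drenched alongside any treatment for illness. Healthy cattle stayed free of clinical disease over the 60 days of the study, whereas the date of each BRD diagnosis is not given in the sources used here, so that the label may refer to disease seen after the day 0 sample. Whether blood was drawn before the vaccine is likewise not given, and the earlier health history of these purchased animals was unknown. In COMBO the healthy animals all stood in pen 5 and the BRD animals all in pen 6, and pen 7 (INR) held 4 BRD animals only, so that disease label and pen cannot be told apart there. Pens 2 and 8 (AAC) and pens 3 and 4 (INR) held both labels, with 15 animals in all.

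Bovine respiratory disease is a multifactorial disease of the airways in which viral infection and the stress of transport and commingling precede bacterial pneumonia. Viral infection induces type I interferons, which raise a set of antiviral genes in circulating leukocytes, including the MX and OAS families. Whole blood RNA in cattle comes chiefly from lymphocytes, neutrophils and monocytes, and a change in the level of a cell type's genes in such a bulk sample cannot separate fewer cells of that type from less RNA per cell.

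In BRD cattle the counts of a library summed to between 38235387 and 46966252 (median 41597700, n = 14), and in healthy cattle to between 32682014 and 51351890 (median 43991700, n = 12). The labels differed by less than the spread between animals in total counts (adjusted p = 0.900, permutation within supplement), in the share of counts in the 10 most abundant genes (4.903% ± 0.470 in BRD and 4.908% ± 0.261 in healthy cattle, SD; adjusted p = 0.900) and in the share of ribosomal protein genes (2.09% ± 0.314 and 2.19% ± 0.198; adjusted p = 0.900). Hemoglobin genes took 0.0736% ± 0.179 of counts in BRD and 0.0409% ± 0.0607 in healthy cattle (adjusted p = 0.900, permutation), with the highest share, 0.694%, in BRD animal 9. Leukocyte markers were present in every group, with MS4A1 (CD20, a B cell surface protein) between 210 and 1166 CPM, where CPM is the count of a gene scaled to the TMM-adjusted library total and is not corrected for gene length.

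No gene passed an FDR below 0.10 between BRD and healthy cattle at day 0. Of 15980 tested genes, 0 (0%) passed in the edgeR quasi-likelihood test with supplement as covariate, and the smallest adjusted p was 0.976. At an unadjusted p below 0.05 there were 815 genes (5.1%), 457 of them (2.86%) higher and 358 (2.24%) lower in BRD cattle. Limma with voom also called 0 genes (700 at an unadjusted p below 0.05), and DESeq2 called 3 genes (0.0188%), 1 higher and 2 lower. The standard error of the log2 fold change had a median of 0.134 over the tested genes, and 0.368 at its 90th percentile. The fold changes centred at 0.0047 on the log2 scale, and 51.51% of genes, 8232 in number, were above 0. A count of 0 calls shows only that no difference was detectable with these animals.

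**Figure D1:**
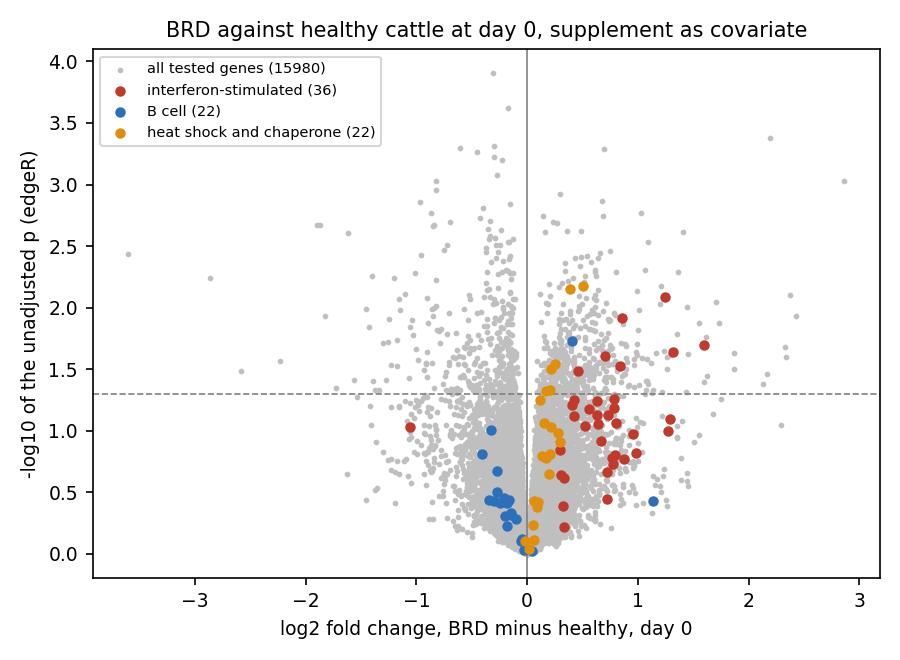
Each point is a tested gene, with the log2 fold change of BRD minus healthy cattle at day 0 on the horizontal axis and -log10 of the unadjusted edgeR p on the vertical axis; the dashed line marks p = 0.05. Of the 36 interferon-stimulated genes 35 lie right of 0, 3 of the 22 B cell genes do, and 21 of the 22 heat shock and chaperone genes do, and no gene passes an FDR of 0.10.

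The genes of smallest p that were higher in BRD cattle did not pass the adjusted test. They were chosen by these same values, so counts of animals beyond the other label describe them and add no support. Such counts were not made over all genes. LGALS9, which encodes galectin-9, a lectin that binds TIM-3, an inhibitory receptor on T cells, ranged from 180 to 558 CPM in BRD cattle (median 299) and from 125.3 to 377 in healthy cattle (median 204), a log2 difference of 0.69 ± 0.172 (SE; adjusted p = 0.976, edgeR). The ranges overlapped, 11 of 14 BRD animals were above the healthy median, and the 3 above every healthy animal were COMBO animals 18 and 54 and AAC animal 21. PSMB10, a catalytic subunit of the immunoproteasome that cuts peptides for MHC class I, ranged from 26.9 to 162 CPM in BRD cattle (median 77.3) and from 27.7 to 71.5 in healthy cattle (median 52.04), a log2 difference of 0.67 ± 0.186 (adjusted p = 0.976, edgeR), and 9 of 14 BRD animals lay above all healthy animals. PICK1, a PDZ-domain scaffold that binds protein kinase C, was at 7.88 to 12.9 CPM in BRD cattle (median 10.4) and at 7.10 to 9.84 in healthy cattle (median 8.65), a log2 difference of 0.29 ± 0.0803 (adjusted p = 0.976, edgeR). Here 10 of 14 BRD animals were above every healthy animal. The remaining 2 genes were of low count. LOC100301305, annotated by RefSeq as a V segment, ranged from 0.0451 to 14.4 CPM in BRD cattle (median 1.52) and from 0.0621 to 1.18 in healthy cattle (median 0.216), a log2 difference of 2.86 ± 0.761, with 8 BRD animals above all healthy animals. LOC112443766 had a log2 difference of 2.19 ± 0.537, with 5 BRD animals above all healthy animals.

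The genes of smallest p on the lower side had log2 differences between -0.61 and -0.17 and did not pass the adjusted test either. They were chosen in the same way, with the same limit on counts of animals. DGKE, a diacylglycerol kinase, ranged from 15.7 to 24.8 CPM in BRD cattle (median 20.7) and from 19.6 to 30.5 in healthy cattle (median 25.3), a log2 difference of -0.31 ± 0.0683 (adjusted p = 0.976, edgeR). EEF2K, the kinase that inhibits translation elongation factor 2, ranged from 100.7 to 125.7 CPM (median 111.468) in BRD cattle and from 111.471 to 139.6 CPM (median 126.2) in healthy cattle, a log2 difference of -0.17 ± 0.0392 (adjusted p = 0.976, edgeR). None of the 14 BRD animals exceeded the healthy median for DGKE or EEF2K, and 7 of them were below all healthy animals for EEF2K. IPO8, a nuclear import receptor, ranged from 67.9 to 112.4 CPM (median 83.8) against 71.02 to 127.2 CPM (median 101.2), a log2 difference of -0.30 ± 0.0755. LOC515418 ranged from 102.7 to 194 CPM (median 143) against 92.9 to 356 CPM (median 214), a log2 difference of -0.61 ± 0.153. AGFG2, an ArfGAP-domain protein with FG repeats, ranged from 35.97 to 58.1 CPM (median 45.5) against 30.5 to 89.5 CPM (median 58.6), a log2 difference of -0.46 ± 0.115. For LOC515418 and AGFG2 no BRD animal exceeded the healthy median, and healthy COMBO animal 6 was the lowest of all 26. DGKE, EEF2K and LOC112443766 were the 3 genes called by DESeq2, in which the smallest adjusted p was 0.0792.

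Interferon-stimulated genes had the highest median of the 36 gene lists examined, but no member passed the test. Of 40 listed genes 36 were tested, and 35 had a positive log2 fold change, with a median of 0.72 against 0.0047 for all tested genes. Of these, 0 were called at an FDR below 0.10 in a comparison that called 0% of genes, and 7 reached an unadjusted p below 0.05, each higher in BRD cattle, where 2.86% of all genes did so. The members of highest CPM were OAS2, a sensor that makes 2-5A to activate RNase L, and MX1, a GTPase that blocks viral replication. OAS2 ranged from 324 to 7734 CPM in BRD cattle (median 1291) and from 205 to 3081 in healthy cattle (median 969), a log2 difference of 0.80 ± 0.446 (adjusted p = 0.978, edgeR). MX1 ranged from 311 to 5350 CPM in BRD cattle (median 894) and from 163 to 1692 in healthy cattle (median 609), a log2 difference of 0.78 ± 0.407 (adjusted p = 0.978, edgeR). The ranges overlapped broadly, and for both genes the same 4 BRD animals, 18 and 54 of COMBO and 23 and 43 of INR, lay above all healthy animals. The members with an unadjusted p below 0.05, named after their values were seen, were IFIT3, ISG20, IFI44, DDX58, HERC5, IRF7 and SAMD9, with log2 differences from 0.46 (SAMD9) to 1.60 (IFI44).

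The level of these genes also differed between pens. The summed level of the 36 genes, in CPM, lay between 3629 and 4239 in the 4 animals of pen 4, of which 3 were healthy and 1 was BRD, and between 16601 and 27068 in the 3 animals of pen 3, of which 1 was healthy and 2 were BRD. Pens 3 and 4 received the same INR supplement, and their ranges did not overlap. INR pen 7, with BRD animals only, lay between them at 7270 to 13204. The AAC pens 2 and 8 overlapped, at 5131 to 7867 and 4126 to 10722. In pen 6, BRD animals 18 and 54 had the highest sums of all, 44247 and 36742, while their pen mate, BRD animal 16, had 5319. In pen 5, healthy animal 6 reached 17456. Across labels the sum had a median of 8604 in BRD cattle and 6771 in healthy cattle, with the lowest values, 3890 and 3629, both from pen 4.

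**Figure D2:**
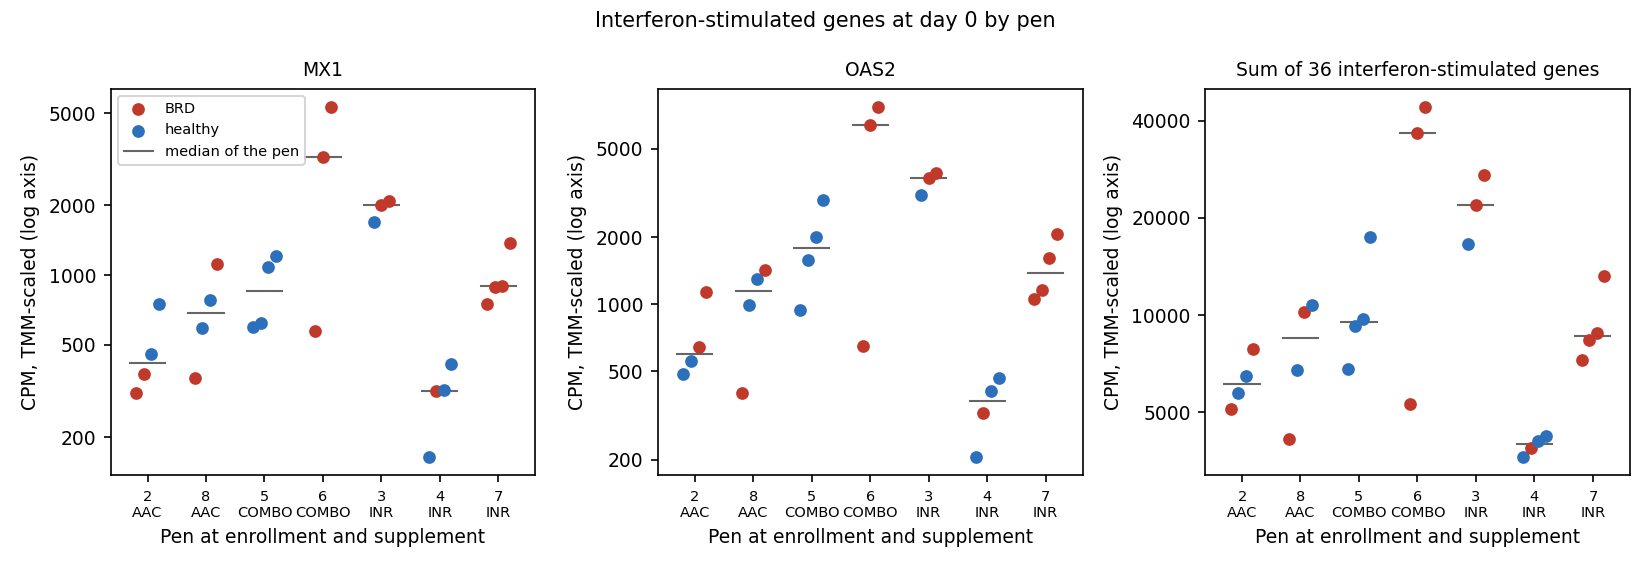
Each point is an animal at day 0, placed by its pen at enrollment and supplement, with TMM-scaled CPM on a log axis for MX1, OAS2 and the sum of the 36 tested interferon-stimulated genes; the line is the median of the pen. The 3 animals of pen 3 sit at sums of 16601 to 27068 and the 4 animals of pen 4 at 3629 to 4239 whatever their label.

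A pen term was then tested within supplement in the 19 AAC and INR animals, with disease label and supplement in the model; this test was added after the values by pen had been seen. Of 15980 genes, 306 (1.91%) differed between pens at an FDR below 0.10 in edgeR, and 26 of the 36 interferon-stimulated genes (72.2%) were among them. OAS2 (adjusted p = 0.00822, edgeR), MX1 (adjusted p = 0.0171) and RSAD2, which encodes the antiviral enzyme viperin (adjusted p = 0.00822), were among these calls. With each of the 19 animals left out in turn, 23 to 29 interferon-stimulated genes were called and 0.670% to 2.79% of all genes, the share being 0.670%, 1.05%, 0.932%, 1.25% and 0.845% without healthy animals 7, 10, 30, 34 and 50 and 0.920%, 1.10% and 0.851% without BRD animals 23, 40 and 43. In the 15 animals of the pens that held both labels, with pen as covariate, the interferon-stimulated genes had a median log2 difference of 0.022 between BRD and healthy cattle, with 21 of 36 above 0, a median that lay between -0.11 (without healthy animal 10) and 0.19 (without BRD animal 9) when each animal was left out and turned sign, and MX1 stood at -0.14 (adjusted p = 0.830, edgeR). The 15 animals exclude pen 7 and every COMBO animal, among them BRD animals 18 and 54 with the highest sums. Their median therefore cannot separate the pen covariate from the change of animals. Whether pen itself, the origin of the animals or another property shared by pen mates went with the levels by pen was not tested.

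The level of interferon-stimulated genes changed between days in some animals and little in others. The sum in BRD animal 54 went from 36742 CPM at day 0 to 4843 at day 13, and that in BRD animal 43 from 27068 to 9255. In BRD animal 16 the sum went from 5319 at day 0 to 36610 at day 13. BRD animal 18 was at 44247, 8719, 22313, 26851 and 8408 CPM over the 5 days. Among healthy cattle, the sum went from 17456 at day 0 to 4740 at day 13 in animal 6, and from 4239 at day 0 to 15626 at day 45 in animal 50. In contrast, BRD animal 40 stayed between 3521 and 4236 CPM and BRD animal 9 between 3966 and 4817 CPM. The 3521 CPM of animal 40 is from its day 60 library, which the paper singles out for low RNA integrity. At day 45 that animal was at 3550 CPM. Each day's sum was scaled within that day.

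Antigen presentation genes of the MHC class I pathway had positive differences for most members and no call. Of 19 listed genes 17 were tested, 15 were above 0 with a median log2 difference of 0.15, 0 were called, and 5 reached an unadjusted p below 0.05, all higher in BRD cattle (2.86% of all genes). JSP.1, a class I heavy chain and the member of highest CPM, ranged from 2169 to 7394 CPM in BRD cattle (median 3546) and from 2900 to 5161 in healthy cattle (median 3611), a log2 difference of 0.066 ± 0.164 (adjusted p = 0.993, edgeR). PDIA3, a disulfide isomerase of the peptide-loading complex, ranged from 448 to 673 CPM (median 482) and from 358 to 587 CPM (median 465), a log2 difference of 0.15 ± 0.0637 (adjusted p = 0.976, edgeR). Class I heavy chains share sequence with one another, so that the counts of JSP.1 and of BOLA-NC1 (log2 difference 1.08 ± 0.496, named after its value was seen) are uncertain.

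Heat shock and chaperone genes likewise had positive differences and no call. All 22 were tested, 21 were above 0 with a median of 0.17, and 6 reached an unadjusted p below 0.05, each higher in BRD cattle, where 2.86% of all genes did so. Among the 6, HSPB1, a small heat shock protein, had a log2 difference of 0.50 ± 0.169 and DNAJA1, an HSP70 co-chaperone, one of 0.38 ± 0.1304 (both named after their values were seen). The members of highest CPM overlapped between the labels. HSPA8, the constitutive HSP70, ranged from 478 to 1575 CPM in BRD cattle (median 940.4) and from 397 to 1455 in healthy cattle (median 974), a log2 difference of 0.060 ± 0.206. HSP90AB1, the constitutive HSP90, ranged from 534 to 2225 CPM (median 812) and from 625 to 1017 CPM (median 788), a log2 difference of 0.27 ± 0.163 (adjusted p = 0.978, edgeR), with the highest values in COMBO animals 18 and 54, the same 2 animals that led the interferon-stimulated genes.

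Granulocyte genes had medians on both sides of 0. Of 26 tested neutrophil surface and chemotaxis genes 20 were above 0 (median log2 difference 0.25) and 0 were called. At an unadjusted p below 0.05, 1 was higher, where 2.86% of all genes were. The median was 0.42 in AAC and -0.28 in COMBO (10 of 26 above 0). In the pens that held both labels, with pen as covariate, it was 0.50 (23 of 26 above 0). There 10 of 26 reached an unadjusted p below 0.05 and were higher (8.45% of all genes), 1 was lower, and 0 were called. S100A12, an alarmin of neutrophils, ranged from 572 to 4381 CPM in BRD cattle (median 1025) and from 461 to 2032 in healthy cattle (median 848), a log2 difference of 0.62 ± 0.336 (adjusted p = 0.978, edgeR). Of 14 tested eosinophil and basophil genes, in contrast, 1 was above 0 and the median was -0.52, again with 0 called and 1 at an unadjusted p below 0.05 and lower, where 2.24% of all genes were. That gene, IL5RA, the receptor chain for the eosinophil growth factor interleukin-5, had a log2 difference of -1.31 ± 0.522 (adjusted p = 0.976, edgeR; named after its value was seen). SIGLEC8, the member of highest CPM, ranged from 295 to 1133 CPM in BRD cattle (median 398) and from 323 to 635 in healthy cattle (median 445), a log2 difference of 0.12 ± 0.192 (adjusted p = 0.992, edgeR). ALOX15, a lipoxygenase abundant in eosinophils, ranged from 3.02 to 192 CPM (median 15.6) and from 2.15 to 183 CPM (median 47.9), a log2 difference of -1.06 ± 0.622 (adjusted p = 0.978, edgeR). Of the defining granule genes of eosinophils, PRG2, EPX, RNASE2 and CLC were not among the tested genes, while PRG3 was (log2 difference -1.07 ± 0.879). The direction of the eosinophil and basophil list did not hold throughout: its median was 0.24 in AAC (11 of 14 above 0) and 0.016 in the pens that held both labels, with pen as covariate (7 of 13 above 0).

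**Figure D3:**
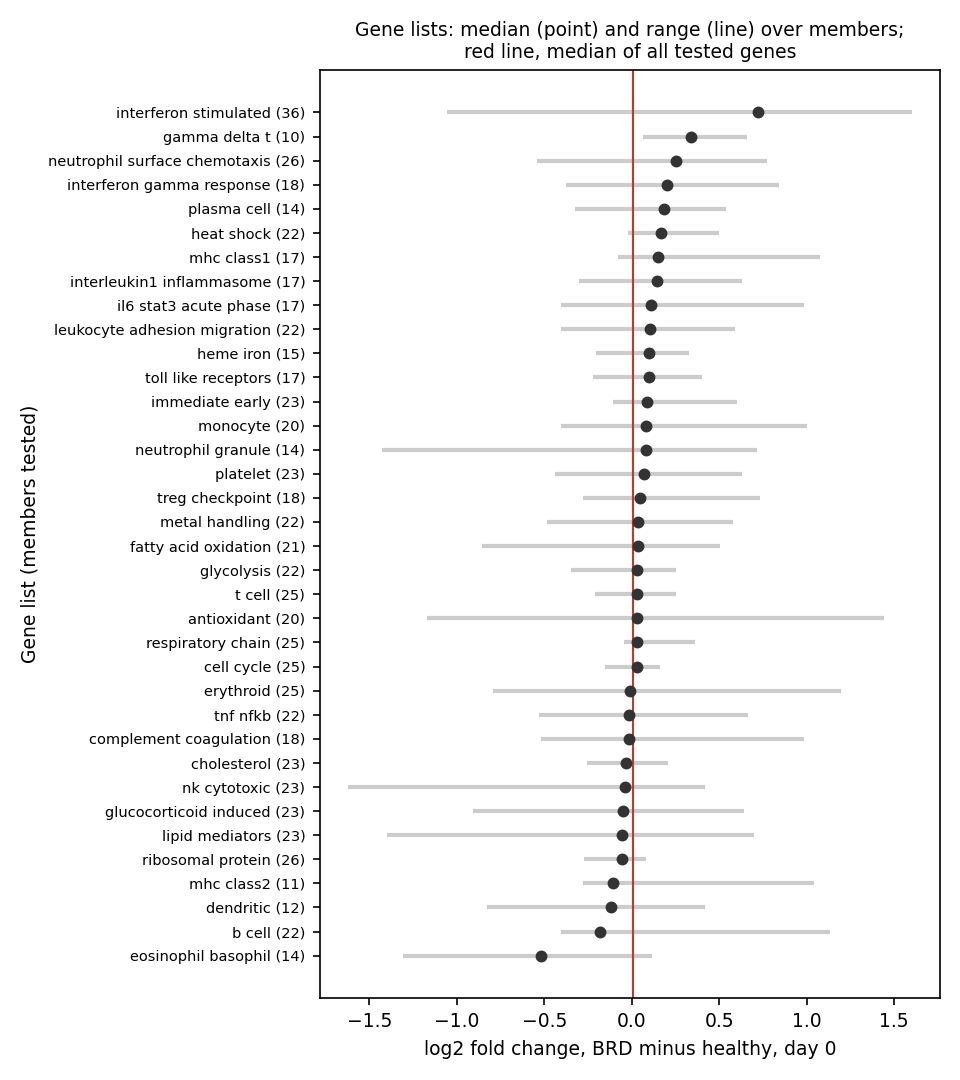
Each row is a gene list with its number of tested members, the point is the median log2 fold change of BRD minus healthy cattle at day 0 and the line spans the lowest to the highest member; the vertical line is the median of all tested genes, 0.0047. Interferon-stimulated genes lie farthest right at 0.72 and eosinophil and basophil genes farthest left at -0.52 (0.24 in AAC alone), and no member of any list was called.

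The difference between BRD and healthy cattle was then compared between the 3 supplements to which the animals were allocated on day 0. Day 0 was the day of pen enrollment, and the paper states that gene differences on that day do not reflect supplementation. Only COMBO animals had been drenched before shipment, so AAC and INR name groups of allocation here. The edgeR test of the disease by supplement interaction called 1037 of 15980 genes (6.49%) at an FDR below 0.10, and 14 of the 22 B cell genes (63.6%) were among them. It called 0 genes without BRD animal 18 of COMBO, 12 without BRD animal 54 of COMBO, 57 without healthy animal 48 of AAC and 0 in AAC and INR animals only. In COMBO, disease label and pen cannot be told apart. The COMBO difference exceeded the AAC difference for 727 of the 1037 genes and was below it for 310, and 708 were lower in AAC and higher in COMBO BRD cattle. Called B cell genes included BANK1, BLNK, CD22, CD79A, CD79B, EBF1, FCRL1, FCRLA, MS4A1, PAX5, POU2AF1, SPIB and TNFRSF13C, which include the signalling chains of the B cell receptor (CD79A, CD79B) and the lineage factors PAX5 and EBF1. Of the interferon-stimulated genes 0 of 36 were called and of the T cell genes 0 of 25. Both lists also had medians of unlike sign, however. The interferon median was -0.13 in AAC (11 of 36 above 0) and 1.34 in COMBO (35 of 36 above 0). The T cell median was 0.40 in AAC (25 of 25 above 0) and -0.22 in COMBO (6 of 25 above 0). The lists were not compared by a test. Interaction calls and pen calls shared 20 genes. These were 1.93% of the interaction calls, where the pen test called 1.91% of all genes. They were 6.54% of the pen calls, where the interaction called 6.49% of all genes. The overlap was thus near the shares over all genes, and the pen test held no COMBO animal.

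POU2AF1, a coactivator of immunoglobulin transcription in B cells, had the smallest p of the interaction (adjusted p = 0.0317, edgeR). In AAC it was at 161, 174, 264 and 306 CPM in healthy cattle and at 91.2, 112.9, 116.7 and 120.9 CPM in BRD cattle. In COMBO it was at 77.6, 142, 143 and 147 CPM in healthy cattle and at 252, 255 and 256 CPM in BRD cattle. The labels thus did not overlap in either supplement and stood in opposite order, with a log2 difference of -1.04 ± 0.205 in AAC and of 0.998 ± 0.218 in COMBO. POU2AF1 was chosen by the interaction test on these same values, so this separation adds no support to it. How many of all genes separate in this way was not counted. In INR the labels overlapped (log2 difference -0.025 ± 0.1797; adjusted p = 0.994, edgeR), and over all supplements POU2AF1 had a log2 difference of -0.054 ± 0.197.

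MS4A1 had the same arrangement with more spread (interaction adjusted p = 0.05004, edgeR). In AAC it was at 819 ± 240 CPM in healthy cattle and 365 ± 84.6 CPM in BRD cattle (SD, n = 4 each), without overlap between the labels. In COMBO it was at 493 ± 205 CPM in healthy cattle (n = 4) and 894 ± 258 CPM in BRD cattle (n = 3), and the lowest BRD animal, 653 CPM, was below the highest healthy animal, 676 CPM. CD79A was at 668 ± 169 and 459 ± 54.3 CPM in AAC and at 507 ± 119.1 and 799 ± 152 CPM in COMBO, healthy cattle first (interaction adjusted p = 0.0619, edgeR). Pooled over supplements, MS4A1 had a log2 difference of -0.21 ± 0.231 and CD79A of -0.046 ± 0.144, neither past the test. The other leading genes of the interaction were RASGRP3, an activator of RAS signalling downstream of the B cell receptor (COMBO minus AAC log2 difference 2.096), PCED1B (2.02), ZMIZ2, a transcriptional coregulator (1.23), and XKRX, an XK-related membrane protein (2.55), with adjusted p-values from 0.0317 to 0.0396 in edgeR.

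**Figure D4:**
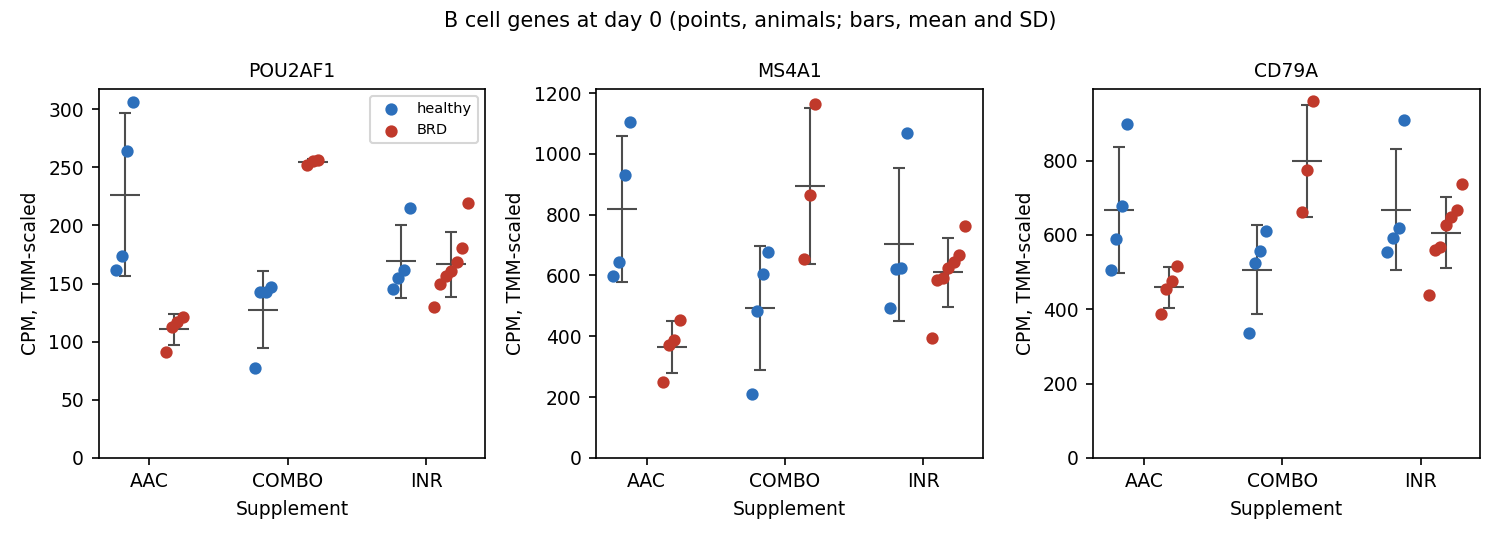
Points are animals at day 0, by supplement and disease label, with TMM-scaled CPM of POU2AF1, MS4A1 and CD79A; bars are the mean and SD. BRD animals of AAC lie below healthy animals for POU2AF1 and MS4A1, BRD animals of COMBO lie above healthy animals for POU2AF1 and CD79A, and the labels overlap in INR.

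Within each supplement, contrasts of the same 26-library fit gave 258 calls in AAC (1.61% of genes; 67 or 0.419% higher and 191 lower in BRD cattle), 313 in COMBO (1.96%; 241 higher and 72 or 0.451% lower) and 0 in INR (821 at an unadjusted p below 0.05). Of the B cell genes, 11 of 22 were called lower in AAC BRD cattle, where 1.2% of all genes were, and 3 of 22 were called higher in COMBO BRD cattle, where 1.51% were. The median log2 difference of the B cell list was -1.07 in AAC, 0.85 in COMBO and -0.20 in INR. Lists of other cell types also had medians of opposite sign in AAC and COMBO. These were 0.63 and -0.72 for monocyte genes, 0.25 and -0.97 for neutrophil granule genes, and 0.43 and -0.71 for platelet genes. For T cell genes they were 0.40 and -0.22, and for MHC class II genes -0.40 and 0.69. The part of these lists in the B cell difference was not tested. When each supplement was fitted alone, edgeR called 0 genes in AAC (2190 at an unadjusted p below 0.05), 0 in COMBO (2033) and 0 in INR (913).

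The interaction rested on few animals. Without BRD animal 18 it had 0 calls and 0 B cell genes, without BRD animal 54 it had 12 calls and 1 B cell gene, and without healthy animal 48 it had 57 calls and 4 B cell genes. Without healthy animal 49 or 6 there were 161 and 268 calls, with 11 and 13 B cell genes, and without BRD animal 16 there were 2614. Without healthy animal 50 or 57 there were 686 and 596, and without BRD animal 9, 21, 27 or 31 there were 584, 581, 639 and 663. Leaving out BRD animal 16, 18 or 54 leaves 2 BRD animals in COMBO. Animals 18, 54 and 48 also had the highest scores of the 26 on the leading principal component, 108.8, 95.8 and 86.24, and BRD animal 21 of AAC (-122.99) and healthy animal 6 of COMBO (-85.3) the lowest. In AAC and INR animals only, 1636 genes were at an unadjusted p below 0.05 in edgeR.

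The B cell genes were followed in the later samples of the same animals, with each day fitted alone. In AAC the median log2 difference of the 22 genes was -1.07 at day 0, -0.86 at day 13, -1.05 at day 28, -1.06 at day 45 and -1.001 at day 60. In COMBO it was 0.85, 0.33, 0.37, 0.26 and 0.18 over the same days, and in INR it lay between -0.20 and 0.076. The interaction called 180 genes and 10 B cell genes at day 28, and 0 genes at days 13, 45 and 60 in edgeR (2465, 1262 and 1126 at an unadjusted p below 0.05). For POU2AF1 in AAC the labels overlapped at days 13 and 45, since BRD animal 31 was at 195.0 and 181.05 CPM, above the lowest healthy animals at 188.3 (animal 34) and 168.8 CPM (animal 46). They overlapped at the same days in COMBO, where BRD animal 54 was at 170.7 and 195.4 CPM and healthy animal 42 at 194.7 and 214 CPM. Healthy animal 48 of AAC was not analysed at day 13. The days share their animals and are therefore not independent of one another. After day 0, COMBO animals treated for illness were to have further drench, which cannot be told apart from the disease label there. All steers were also revaccinated and rotated between pens during the study.

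**Figure D5:**
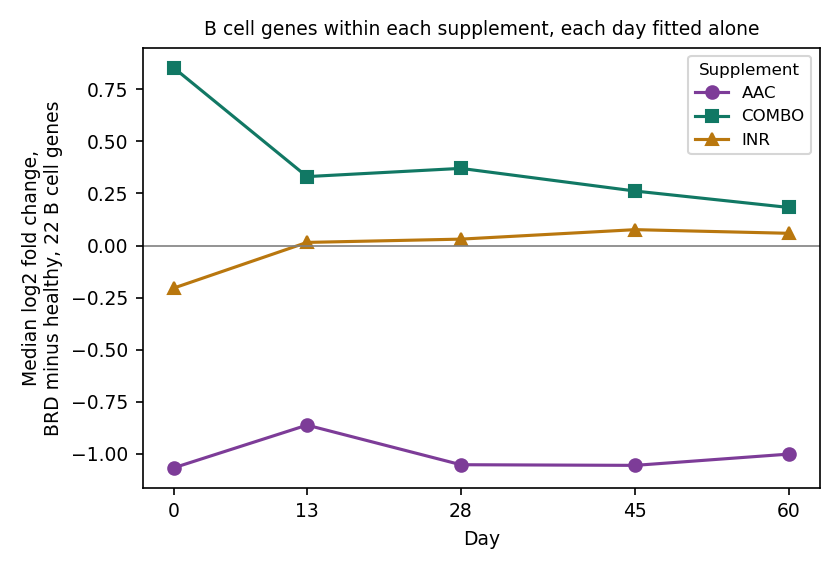
Lines give the median log2 fold change of BRD minus healthy cattle over 22 B cell genes within each supplement, with day on the horizontal axis and each day fitted alone. AAC stays between -1.07 and -0.86, COMBO goes from 0.85 to 0.18, and INR lies between -0.20 (day 0) and 0.076 (day 45).

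Restricting the comparison to the 15 animals of pens 2, 3, 4 and 8, with pen as covariate, gave 8 calls in edgeR (0.0496% of 16136 genes), 2 higher and 6 lower in BRD cattle, and 2999 genes (18.6%) at an unadjusted p below 0.05. IPO8 (log2 difference -0.45 ± 0.0647) and LOC515418 (-0.95 ± 0.154) were among the lower genes, as were SCIMP, an adaptor of antigen-presenting cells (-0.81 ± 0.131), and PPA2, a mitochondrial pyrophosphatase (-0.55 ± 0.0898), the last 2 named after their values were seen; each had an adjusted p of 0.0946. These pens hold no COMBO animal. Of the 22 B cell genes, 17 reached an unadjusted p below 0.05 and were lower in BRD cattle, where 10.1% of all genes did so, with a list median of -0.70 and 0 calls. Monocyte genes lay on the other side, with 11 of 20 at an unadjusted p below 0.05 and higher (8.45% of all genes) and a median of 0.58. They were not alone there. Higher at that p were also 10 of 26 neutrophil surface and chemotaxis genes (1 lower). So were 8 of 20 antioxidant genes and 7 of 17 interleukin-6, STAT3 and acute phase genes (0 lower in each). The number of calls depended on single animals, from 0 in 11 of the 15 fits that left out an animal to 775 without BRD animal 40 and 1209 without healthy animal 46, while the B cell median stayed between -0.97 and -0.57 in all 15. These pens include every AAC animal (4 BRD, 4 healthy), for which the B cell median was -1.07. Over all INR animals it was -0.20, with 1 of 22 members lower at an unadjusted p below 0.05. Leaving out single animals does not show how far the median rests on AAC.

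The labels overlapped on the principal components of the 26 libraries. Over 14382 genes the shares of variance were 20.8%, 11.5%, 9.85%, 5.72% and 5.31% for the leading 5 components. The largest difference between labels, adjusted for supplement, was on PC4 (mean score -9.77 ± 26.98 in BRD and 11.4 ± 27.301 in healthy cattle, SD; p = 0.0293 and adjusted p = 0.146, permutation of labels within supplement, two-sided).

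The same comparison was made at the later days. Each later day fitted alone gave 0 calls in edgeR, with 536 (3.31%), 1455 (8.87%), 472 (2.94%) and 337 (2.07%) genes at an unadjusted p below 0.05 on days 13, 28, 45 and 60. The change of the BRD difference from day 0 to day 13 also had 0 calls among 16944 genes. Of the 16944, 209 (1.23%) were at an unadjusted p below 0.05. With the animal as a block there were 0 calls among 16927 genes, and 365 (2.16%) at an unadjusted p below 0.05.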

How the data were processed

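Whole blood was drawn into Tempus tubes and stranded mRNA libraries were sequenced. The authors deposited raw counts per gene, made by trimming reads (Trimmomatic 0.39), aligning them to the bovine genome (HISAT2, version 2.1.1 per the labels), assembling and quantifying with StringTie 2.2.0, whose counts are derived from coverage. Of 129 libraries, the 26 of day 0 were grouped by the disease label, and the replicates are separate animals. Genes were filtered with filterByExpr (15980 of 32395 retained), scaled by TMM and tested with the quasi-likelihood test of edgeR 4.0.16 in R 4.3.3, with supplement as covariate, a common dispersion of 0.135 and Benjamini-Hochberg adjustment at an FDR of 0.10. Library measures and principal component scores were tested with 100000 permutations of labels within supplement. DESeq2 1.42.0 and limma 3.58.1 were alternatives, and the edgeR and permutation tests were tested on simulated data. Levels are CPM scaled by TMM, without length correction. No library pair held identical values.

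Genes were named by rule: the 5 of smallest p in each direction where none was called, the 2 of highest CPM in each list described, and the 5 of smallest p in the interaction; some genes the rule takes are not reported here. Members, lists and tests were chosen with earlier results of these data known. Shared pen and pen tests were made on subsets of the animals, and the pen, leave-out and later-day analyses used the same counts.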

Additional observations from a re-analysis of the deposited data

Results flagged for a closer look

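Several results differed between the supplement groups, as allocated on day 0, by a direct test, the edgeR disease by supplement interaction. It called 1037 genes, of which 14 were B cell genes. Without BRD animal 18 it called 0 genes and 0 B cell genes, and in AAC and INR animals only it called 0 genes. The adjusted p of the interaction was 0.0317 for POU2AF1, 0.0317 for RASGRP3, 0.0317 for PCED1B, 0.0317 for ZMIZ2 and 0.0396 for XKRX. These genes were chosen for the smallest p of this same test. The AAC difference was negative and the COMBO difference positive for each of these 5 genes, with log2 values of -1.04 and 0.998 for POU2AF1, -1.11 and 0.98 for RASGRP3, -0.53 and 1.49 for PCED1B, -0.56 and 0.67 for ZMIZ2, and -1.44 and 1.11 for XKRX. Disease label and pen cannot be told apart in COMBO.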

How the results depend on the processing

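The pooled comparison gave 0 calls with RLE size factors, trended dispersion, limma voom, either filter, no covariate and with each animal left out. DESeq2 called 3 genes (1 higher, 2 lower), a fit of the libraries of all days, which treats the repeated samples of an animal as independent, 2 (2 higher), and pens 2, 3, 4 and 8 gave 8 with a pen covariate (2 higher, 6 lower) and 15 with supplement in its place (6 higher, 9 lower; added after seeing the data, as was the pen test). AAC and COMBO animals alone gave 0 calls against 258 and 313. The interaction had 2186 calls in DESeq2 and 0 in AAC and INR animals only. Leaving out an animal gave 0 to 2614 interaction calls, 0 to 1209 in the shared pens and 0.670% to 2.79% of genes called for pen, against 1.91%. Components of unscaled values had label differences of 4.31 on PC1, -14.1 on PC2, -10.7 on PC5 and -7.29 on PC4 (p = 0.333, permutation), but PC2 to PC5 are other axes there (correlation with the scaled ones 0.28 to 0.47). The sign of a gene turned in COMBO alone for LOC515418 (0.062), MS4A1 (0.85), CD79A (0.65), SIGLEC8 (-0.58), S100A12 (-0.65) and HSPA8 (-0.58); in AAC alone for MX1 (-0.26), JSP.1 (-0.027), ALOX15 (0.39) and HSP90AB1 (-0.33); in the shared pens for MX1 (-0.14) and HSP90AB1 (-0.059, or -0.041 without pen) and JSP.1 (-0.015 without pen); and with voom for JSP.1 (-0.00620). Leaving out an animal gave -0.12 to 0.030 for CD79A, -0.043 to 0.16 for HSPA8, -0.034 to 0.12 for JSP.1, -0.014 to 0.19 for SIGLEC8, -0.32 (without healthy animal 6) to -0.10 (without healthy animal 10) for MS4A1, 0.17 (without BRD animal 54) to 0.34 for HSP90AB1, and 0.64 to 1.28 (without healthy animal 10) for OAS2. The causes were not tested. The change from day 0 to day 13 had 0 calls without and with a replicate block on the animal (365 genes at an unadjusted p below 0.05), the same animals being sampled on both days (median correlation of deviations 0.363, 25 pairs). Depth did not differ detectably between labels.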

Other observations

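Gamma-delta T cell genes, which mark a lymphocyte population that is large in young cattle, had the second highest list median at day 0. Of 17 listed genes 10 were tested, all 10 were above 0, and the median log2 difference was 0.34 with 0 called. In AAC the median was 0.71 with 10 of 10 above 0. There 1 member was called higher, where 0.419% of all genes were, and AAC animals fitted alone gave 0 calls. The median was 0.14 in COMBO and 0.14 in INR (6 of 10 above 0 in each). The edgeR interaction called 2 of the 10 members, SOX4 and TRGC3, where it called 6.49% of all genes. BLK, a kinase, is on both the gamma-delta list and the B cell list. Erythroid genes differed between supplements for 5 of 25 members (ALAS2, CA2, GYPB, HBA1 and HBB) in the edgeR interaction, which called 6.49% of all genes and 0 genes without BRD animal 18, and the list median was 1.14 in AAC, -0.87 in COMBO and -0.44 in INR. The hemoglobin gene HBB reached its highest level, 1880 CPM, in BRD animal 9. Of the heat shock and chaperone genes, the same interaction called 4 of 22 (HSF1, HSP90AB1, HSPD1 and HSPE1). That list had medians of 0.10 in AAC, 0.23 in COMBO and 0.16 in INR. KLRB1, a receptor of NK cells, had a log2 difference of -1.62 (adjusted p = 0.976, edgeR), with medians of 1.26 CPM in BRD and 5.31 CPM in healthy cattle, and was the lowest of 23 NK and cytotoxic genes, of which 11 were above 0 (median -0.037).

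CXCR2, a receptor for interleukin-8 on neutrophils, was at 1.33 CPM in BRD animal 17 at day 0 and at 108.97 CPM in the same animal at day 13, while its day 0 median was 72.8 CPM in BRD and 86.9 CPM in healthy cattle. Such low values recurred in both labels, as in BRD animal 29 at day 0 (2.78 CPM) and day 60 (6.59 CPM) and in healthy animals 46 (3.44 CPM) and 7 (4.24 CPM) at day 45. These genes were chosen after their values were seen.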
